A study of Mus musculus with 60 samples.

Results

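The forestomach of mice given the lowest dose of benzo(ghi)perylene (BghiP) was compared with the forestomach of mice given the vehicle. The members were the 5 forestomach arrays titled D1 and the 5 titled D0, which made 10 of the 60 arrays of the series. The other arrays held lung and liver of the same mice and the forestomach of 2 higher dose groups. Every animal was a male Muta Mouse, a transgenic strain that carries a bacterial lacZ reporter for mutation assays, aged about 10 weeks and housed individually. Every animal, controls included, was gavaged daily with olive oil for 28 days, and the oil carried BghiP at 6.25 mg/kg-bw/day in D1 and none in D0. The higher doses, used here only for comparison, were 12.5 mg/kg-bw/day (D2) and 25 mg/kg-bw/day (D3). Tissue was collected 72 hours after the last dose, and RNA came from random sections of the organ, 1 mouse per array. Each array set Cy5-labelled tissue RNA against a Cy3-labelled reference RNA pooled from mouse cell lines, so a value is the log2 ratio of tissue to reference and a change is the difference of such values, D1 minus D0. Dyes were not swapped. The comparison asks whether the lowest dose changed gene expression in the organ that gavaged material reaches first. In both groups the 5 samples were separate animals.

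BghiP is a polycyclic aromatic hydrocarbon. Many compounds of that class bind the aryl hydrocarbon receptor, a cytosolic transcription factor that pairs with Arnt in the nucleus and turns on Cyp1a1, Cyp1a2 and Cyp1b1, the monooxygenases that oxidise the hydrocarbon, together with its own repressor Ahrr, the ADP-ribosyltransferase Tiparp and the quinone reductase Nqo1. The forestomach is the non-glandular part of the rodent stomach. It is lined by a stratified, keratinised squamous epithelium over a muscle wall, and it meets the acid-secreting and mucus-secreting glandular stomach at the limiting ridge.

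The tissue label was checked against marker lists. Between 25 and 29 of 29 suprabasal and cornified keratinocyte markers on the array were well above background (the scanner software's test of a spot against its surroundings) on each D0 array, and between 26 and 29 on each D1 array. Of 16 basal keratinocyte markers, 11 to 16 were well above background on the D0 arrays and 14 to 16 on the D1 arrays. The squamous keratins Krt5, Krt14, Krt4 and Krt13, the p53 relative Trp63 and the cornified envelope protein loricrin (Lor) were well above background on all 10 arrays. Markers of the neighbouring glandular stomach were also present on some arrays of both groups, as described further on. Pancreatic acinar markers were mixed. Cpa1, Cela3b and Pnlip were well above background on none of the 20 forestomach arrays, while the lipase Cel and colipase (Clps) were so on 19 each and Cela1 on 15.

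The share of probes well above background ran from 21.3% to 50.8% over the D0 arrays and from 24.5% to 49.4% over the D1 arrays. D1 exceeded D0 by 2.21 percentage points on average, and was higher on 4 of 5 slides. The two-sided exact permutation p was 0.786 over the 10 arrays, where 0.00794 is the smallest possible, and 0.25 with signs permuted within the 5 slides, where 0.0625 is the smallest possible. The array least like the rest of its group was mouse 2 in D0 (r = 0.812 with the mean of the other 4) and mouse 6 in D1 (r = 0.810). The 5 slides held 1 array of each dose, and a dose occupied the same column on every slide, so dose and position on the slide cannot be told apart.

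No probe passed the test between D1 and D0. Of 25070 probes tested with limma, 0 were called (percent called 0), where a call took a Benjamini-Hochberg adjusted p no higher than 0.05 together with a 1.5-fold difference or more. The lowest adjusted p was 0.119. The unadjusted p was under 0.05 for 2663 probes higher in D1 (10.6%) and 1884 lower (7.51%), against 1253.5 expected in all at that level. At the level of genes, with the brightest probe standing for each of 13327 genes, 1687 were higher (12.7%) and 1023 lower (7.68%) at that unadjusted level. These percentages are the background against which every count of list members below should be read. Without D1 mouse 9 the total of 4547 probes at the unadjusted level became 2144, without D0 mouse 4 it became 2705 and without D1 mouse 7 it became 2866. It was 2351 when the slide was left out of the model. Without D0 mouse 5, 2 probes were called, 1 of them for Kdf1. The median change over all genes was -0.01 on the log2 scale, and 47.7% of genes were higher by any amount.

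The unadjusted tail was longer on the high side. Changes of at least 2-fold were seen for 446 genes higher in D1, with 359 of them at an unadjusted p under 0.05, and for 50 genes lower, with 30 at that level. Values of the 2 groups seldom separated. All 5 D1 values lay above all 5 D0 values for 28 genes (0.21%) and below them for 17 genes (0.128%). On all 5 slides D1 was higher for 752 genes (5.64%) and lower for 693 (5.2%). Genes that were at least 1.5-fold different, at an unadjusted p under 0.05 and the same way on all 5 slides numbered 264 higher (1.98%) and 79 lower (0.593%), and the leading genes below come from these, so the direction on each slide was part of their choice.

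**Figure D1:**
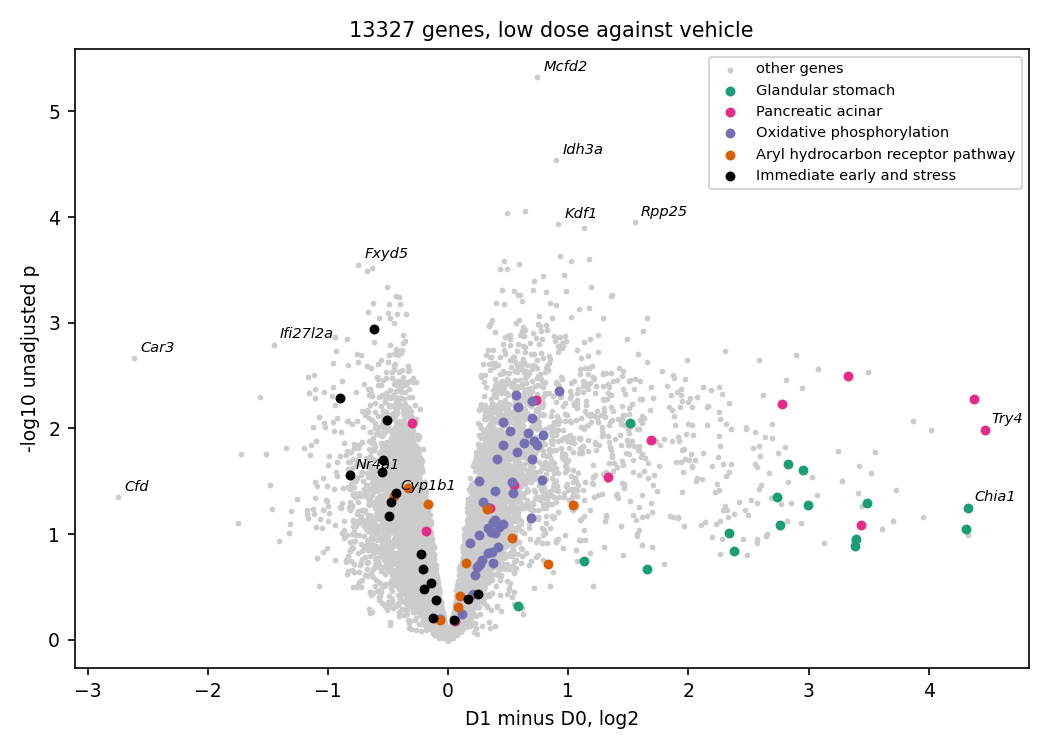
Change of each of the 13327 genes at the low dose (x axis, D1 minus D0, log2) against -log10 of the unadjusted limma p (y axis); grey points are genes outside the coloured lists. Glandular stomach and pancreatic genes reach the far right at modest p, oxidative phosphorylation genes form a compact group right of 0, and Mcfd2 stands highest, at an adjusted p of 0.119.

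The gene with the smallest p, Mcfd2, encodes the soluble partner of the cargo receptor LMAN1, which carries glycoproteins out of the endoplasmic reticulum. Its log2 ratio was -0.76, -0.60, -0.99, -0.55 and -0.46 in D0 mice 1 to 5 and -0.31, 0.40, -0.25, 0.37 and 0.13 in D1 mice 6 to 10. The groups did not overlap. The change was 0.74 ± 0.11 (SE), or 1.67-fold, with an unadjusted limma p of 4.76e-06 and an adjusted p of 0.119.

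Other leading genes included an enzyme of energy metabolism and an epithelial factor. Idh3a, the catalytic subunit of NAD-dependent isocitrate dehydrogenase in the citric acid cycle, measured -0.83, -0.84, -0.96, -0.33 and -0.34 in D0 and -0.35, 0.59, -0.07, 0.78 and 0.25 in D1. Only D1 mouse 6 lay within the D0 range, and the change was 0.90 ± 0.15 (adjusted p 0.181). Kdf1, the keratinocyte differentiation factor, measured 2.19, 1.67, 1.04, 2.36 and 3.39 in D0 and 3.02, 3.25, 1.78, 3.58 and 3.60 in D1, a change of 0.92 ± 0.18 (adjusted p 0.181). For Kdf1 the high D0 value of mouse 5 and the low D1 value of mouse 8 made the ranges overlap. The adjusted p of every remaining gene among the 12 leading genes in each direction was also 0.181.

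Rpp25, a protein subunit of the RNases P and MRP that process structural RNAs, had the largest change of the leading genes. It measured 0.60, 0.77, 0.18, 1.07 and 1.71 in D0 and 1.01, 2.64, 0.83, 3.89 and 3.73 in D1, a change of 1.55 ± 0.30. D1 mice 7, 9 and 10 lay above every D0 value, and mice 6 and 8 lay within the D0 range. The same 3 D1 animals stood highest for Pcsk2, the prohormone convertase of endocrine and neuronal secretory granules, at 1.26, 1.63 and 1.78 against a highest D0 value of 0.20. The other D1 mice had Pcsk2 values of 0.26 and 0.31, so the groups did not overlap and the change was 0.97 ± 0.21. Pcsk2 was well above background on 2 D0 arrays and 4 D1 arrays.

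Herc3, a HECT-domain ubiquitin ligase, was the remaining leading gene without overlap, with D0 values from -0.76 to 0.09 and D1 values from 0.24 to 1.44, a change of 1.17 ± 0.25. The netrin receptor Unc5a was higher by 1.13 ± 0.22 but was well above background on 1 D0 array and 4 D1 arrays. The calcium-binding protein grancalcin (Gca) was well above background on no D0 array and on 3 D1 arrays, so that it was at least 1.66-fold higher in D1 in the normalised Cy5 channel. Such a bound is set against the dimmest probes well above background on each D0 array, and with no dye swap it is open to dye bias.

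Clptm1l, a membrane protein of the endoplasmic reticulum, was higher by 0.64 ± 0.12 and the phosphatase Bpnt1, which hydrolyses the by-product of sulfation reactions, by 0.94 ± 0.20. The lysosomal membrane protein Tmem106b was higher by 0.59 ± 0.13 with its brightest probe, but its 3 probes ranged from -0.00 to 0.59 and so disagreed. 2610507B11Rik was higher by 0.79 ± 0.17. In all 4 of these genes the group ranges overlapped.

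The 12 leading genes in the other direction had changes between -1.45 and -0.62. Fxyd5, a regulator of the sodium pump that lowers cell adhesion, measured -1.46, -1.79, -1.67, -1.62 and -2.31 in D0 and -2.05, -2.75, -2.03, -2.94 and -2.81 in D1, a change of -0.75 ± 0.16. Only D0 mouse 5 reached into the D1 range. Cdkn2c, an inhibitor of the cyclin D kinases, had D0 values from -0.92 to -0.58 and D1 values from -1.90 to -0.99. Its groups did not overlap, and the change was -0.62 ± 0.15. Acta1, the actin of skeletal muscle, had D0 values from 0.02 to 0.54 and D1 values from -1.16 to -0.23, again without overlap, with a change of -0.93 ± 0.25. Acta1 was well above background on 4 D0 and 3 D1 arrays.

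Caveolin 1 (Cav1), the coat protein of caveolae, measured 0.53, 0.62, 0.20, 0.76 and 0.97 in D0 and 0.25, -0.63, 0.07, -0.94 and -0.37 in D1, a change of -0.94 ± 0.24. Ifi27l2a, an interferon-inducible mitochondrial protein, measured 0.81, 1.38, 0.41, 0.81 and 2.04 in D0 and 0.64, -1.28, -0.06, -1.34 and 0.22 in D1. That was the largest change of the leading lower genes, -1.45 ± 0.38, and D1 mouse 6 lay inside the D0 range. Mice 7 and 9 were the lowest of D1 for Cav1 and Ifi27l2a.

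The immediate early gene Ier3 had a change of -0.62 ± 0.15, the transcriptional cofactor Lmo2 of blood and endothelial cells of -0.62 ± 0.16, the splicing protein Snrpf of -0.66 ± 0.16 and the RNA-binding protein Celf5 of -0.63 ± 0.14. Pip5k1a, a kinase that makes phosphatidylinositol bisphosphate, had a change of -0.67 ± 0.15 with its brightest probe, while its other probe gave -0.06. Klra16, a receptor of the natural killer cell Ly49 family, had a change of -0.76 ± 0.20, and the histone gene H4c11 of -0.73 ± 0.20. Celf5 and Klra16 were each well above background on 3 D0 and 2 D1 arrays, and the change of Klra16 was -0.50 without D0 mouse 4. Klra16 and H4c11 have near-identical relatives that a probe may not separate, so their identity is uncertain.

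**Figure D2:**
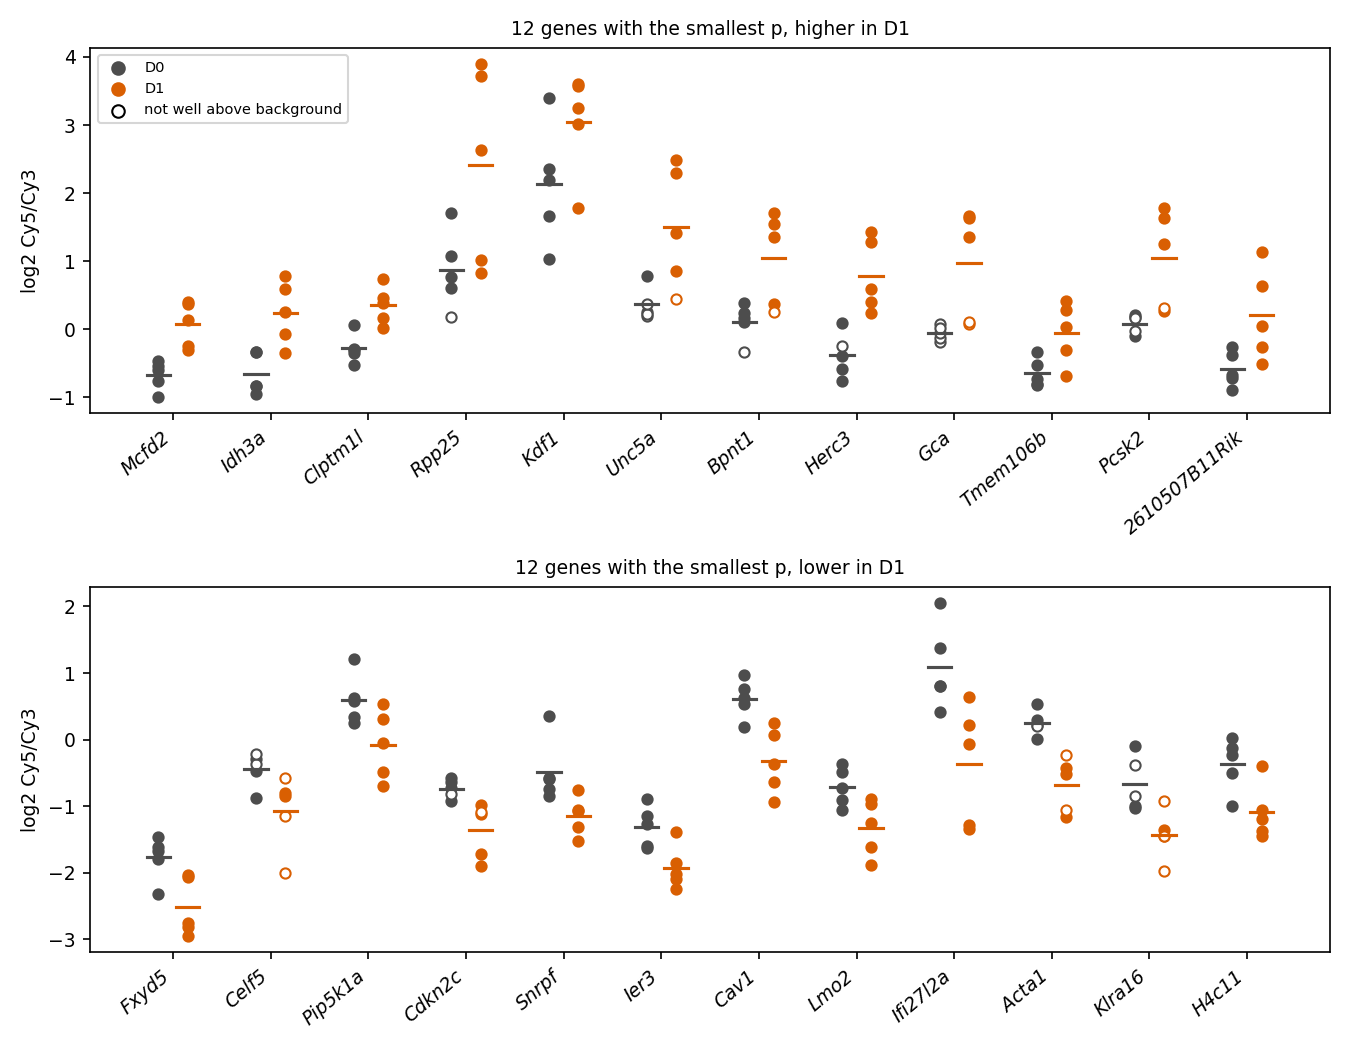
Log2 Cy5/Cy3 ratio (y axis) of the 12 genes with the smallest p in each direction on the 5 D0 (grey) and 5 D1 (orange) forestomach arrays; bars are group means and open points were not well above background. Mcfd2, Herc3 and Pcsk2 show no overlap in the upper panel, and Cdkn2c and Acta1 show none in the lower one.

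Among the gene lists, that of the glandular stomach had the highest median change. Of 19 listed genes 16 were tested, and all 16 were higher in D1 by any amount, with a median change of 2.79, against a median of -0.01 and a share of 47.7% over all genes. Of the 16, 4 were higher at an unadjusted p under 0.05 (25%, background 12.7%), and none passed the adjusted test. The array means of the list, set against the D0 average, were -1.94, 3.31, 2.52, -1.77 and -2.11 in D0 mice 1 to 5 and -1.55, 3.85, 2.72, 4.42 and 3.92 in D1 mice 6 to 10. Levels were thus low in 3 of 5 D0 mice and in 1 of 5 D1 mice and high in the others, and the ranges overlapped. Of 18 markers on the array, 5, 15, 15, 7 and 7 were well above background on the D0 arrays and 9, 16, 15, 16 and 17 on the D1 arrays.

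The promoters of the gastrokines Gkn1 and Gkn2 are shown because these secreted proteins of the gastric surface mucous cell mark the tissue that varied most between arrays. They are the 250 bases before the start of the gene in RefSeq, build GRCm38.p6, written 5′ to 3′ in the direction of the gene, with GATAA and its reverse complement TTATC, the core bound by GATA factors, in capitals.
Gkn1 (chr6:87350916-87351165, minus strand): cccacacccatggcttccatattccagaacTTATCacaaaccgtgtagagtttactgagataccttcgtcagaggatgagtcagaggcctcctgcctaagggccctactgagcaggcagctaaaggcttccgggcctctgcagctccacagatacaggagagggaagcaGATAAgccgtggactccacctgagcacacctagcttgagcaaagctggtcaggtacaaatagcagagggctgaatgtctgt
Gkn2 (chr6:87373115-87373364, plus strand): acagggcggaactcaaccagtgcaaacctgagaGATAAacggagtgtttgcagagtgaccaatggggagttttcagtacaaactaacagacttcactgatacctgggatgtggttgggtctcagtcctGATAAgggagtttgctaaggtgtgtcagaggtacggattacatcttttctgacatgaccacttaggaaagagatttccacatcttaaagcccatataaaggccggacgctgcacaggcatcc
Each held 2 matches. GATAA in either direction occurred in 22.6% of the 32851 promoters of this length, and in 6 of the 17 promoters found for 13 genes of the glandular stomach list (35.3%). A match is a run of letters only, and binding was not measured.

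Gkn1 measured 0.24, 3.97, 2.88, 0.06 and 0.39 in D0 and 0.36, 5.62, 3.17, 6.54 and 5.98 in D1, and it was well above background on 2 D0 and 4 D1 arrays. D1 was higher on 5 of 5 slides, by 2.83 ± 1.10 (unadjusted limma p 0.0215, adjusted p 0.214). Gkn2 measured 2.21, 9.13, 8.82, 1.85 and 0.39 in D0 and 2.86, 9.29, 8.65, 9.59 and 8.97 in D1, a change of 3.39 ± 2.12 (adjusted p 0.396). In both genes D0 mice 2 and 3 were the highest of D0, D1 mouse 6 was the lowest of D1, and the groups overlapped.

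Genes of the acid-secreting and enzyme-secreting cells again ran low in D0 mice 1, 4 and 5 and D1 mouse 6. Atp4a, the catalytic subunit of the gastric proton pump, measured -0.31, 6.41, 5.15, 0.02 and 0.29 in D0 and 0.23, 7.51, 5.80, 7.76 and 7.68 in D1, a change of 3.48 ± 1.64. Its partner Atp4b had a change of 3.39 ± 2.00. Gastric intrinsic factor (Cblif), which binds cobalamin and in mice comes from chief cells, had a change of 4.31 ± 2.38. Atp4a, Atp4b and Cblif were well above background on 2 D0 arrays each and on 4, 5 and 5 D1 arrays.

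The pepsinogen Pgc of chief cells had a change of 2.74 ± 1.25 (adjusted p 0.265), the acidic chitinase Chia1 of 4.33 ± 2.09 (adjusted p 0.286) and the mucosal repair peptide Tff1 of 1.66 ± 1.27 (adjusted p 0.489). Chia1 alone ranged from 0.11 to 8.75 within D0 and from 1.84 to 10.08 within D1, so the spread inside a group was wider than the difference between the groups. The water channel Aqp5 had the lowest change of the list, 0.58 ± 0.80. Single animals moved these values by over 1.5 times. Without D0 mouse 4 the change was 2.20 for Atp4a, 2.60 for Cblif, 2.09 for Atp4b, 2.74 for Chia1 and 0.0165 for Aqp5, and without D0 mouse 5 it was 2.11 for Gkn2 and 0.73 for Tff1. The tight junction gene Cldn18 was not well above background on any D0 array and was so on 3 D1 arrays, with a bound of 2.46-fold higher in D1 (adjusted p 0.188). In bulk tissue, more cells of a type and more RNA per cell cannot be told apart.

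Genes of pancreatic acinar cells followed a similar order. Of 19 listed genes 13 were tested, with 11 higher by any amount, 8 higher (61.5%, background 12.7%) and 1 lower at an unadjusted p under 0.05, and a median change of 1.33. The array means were -0.56, 0.93, 0.48, -0.30 and -0.55 in D0 and -0.28, 2.33, 0.92, 2.89 and 2.84 in D1, so that D1 mice 7, 9 and 10 lay above every D0 array. Of 18 markers on the array, 3 to 7 were well above background on the D0 arrays and 6 to 14 on the D1 arrays.

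The trypsinogen Try4 measured -0.23, 3.53, 2.56, -0.14 and -0.84 in D0 and -0.37, 7.29, 4.50, 8.02 and 7.79 in D1. Its change was 4.47 ± 1.53 (unadjusted limma p 0.0103, adjusted p 0.192), measured largely against D0 values near background. Try5, a close relative of Try4 whose transcripts the probes may not separate, had a change of 4.38 ± 1.34 (adjusted p 0.181). Try4 and Try5 were each well above background on 2 D0 and 4 D1 arrays, and Pnliprp1 on 3 and 4. Pnliprp1, a lipase-related protein, measured -0.11, 2.01, 0.73, 0.63 and 0.00 in D0 and 0.30, 5.43, 1.42, 6.69 and 6.07 in D1, a change of 3.33 ± 0.95 (adjusted p 0.181). The trypsinogen Prss2 was well above background on no D0 array and on 4 D1 arrays, with a bound of 4.73-fold higher in D1 (adjusted p 0.184). Colipase (Clps) ranged from 0.60 to 8.88 in D0 and from 4.49 to 9.43 in D1.

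**Figure D3:**
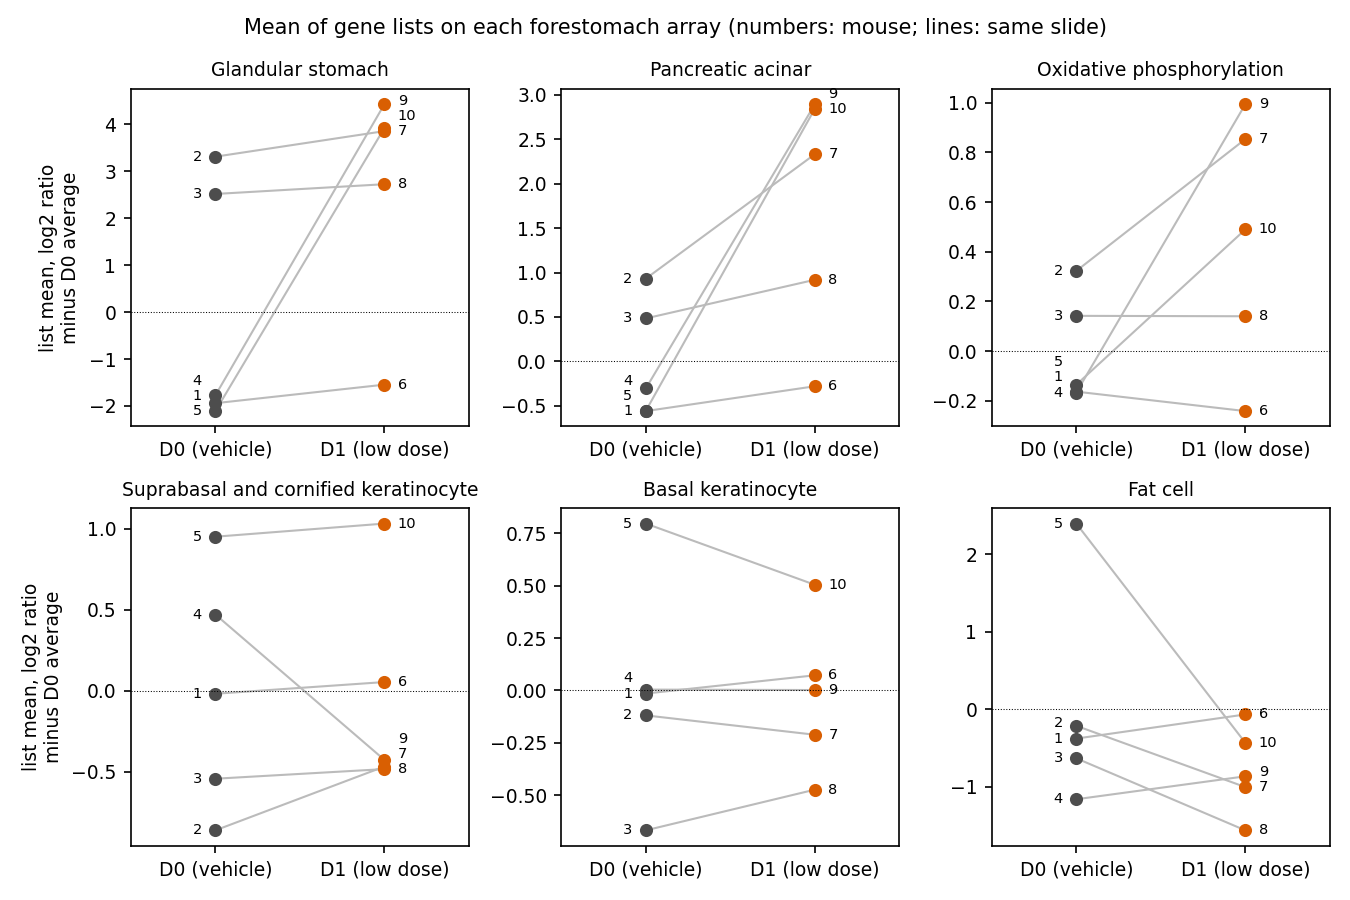
Mean log2 ratio of 6 gene lists on each array, minus the D0 average (y axis), for D0 and D1; each point is 1 mouse with its number and each line joins the 2 arrays of a slide. The glandular stomach panel runs from -2.11 to 4.42 with low and high animals in both groups, while the keratinocyte panels cross 0 in both groups.

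Because the glandular stomach level differed so much between animals, the fit was repeated with the array mean of that list as a covariate, an adjustment chosen after seeing the data. With it 1415 probes were higher and 969 lower at an unadjusted p under 0.05, and the lowest adjusted p was 0.312. Of the 446 genes at least 2-fold higher, 66 stayed past 2-fold and the median went from 1.51 to 0.67. Of the 50 genes at least 2-fold lower, 18 stayed past it, with the median going from -1.12 to -0.81. The median of the glandular list itself became -0.15, as it must be close to 0 by construction, and that of the pancreatic list 0.44. The leading genes moved less, with Mcfd2 at 0.66, Idh3a at 0.84, Kdf1 at 0.98, Rpp25 at 1.23, Fxyd5 at -0.65 and Cdkn2c at -0.59. Beyond this adjustment, the part of glandular tissue in the other changes was not tested.

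Mitochondrial genes were higher by smaller amounts than glandular ones. Of 45 oxidative phosphorylation genes 44 were higher by any amount, 22 of them (48.9%, background 12.7%) and no lower gene at an unadjusted p under 0.05, with a median of 0.41. The array means were -0.16, 0.32, 0.14, -0.17 and -0.14 in D0 and -0.24, 0.85, 0.14, 0.99 and 0.49 in D1. D1 mice 7, 9 and 10 lay above every D0 array, while mouse 6 was the lowest of all 10. D1 was higher on 3 of 5 slides for the list mean. Atp5g1, which encodes subunit c of the ATP synthase, measured -0.06, 0.91, 0.32, -0.04 and 0.35 in D0 and 0.06, 1.72, 0.97, 1.96 and 1.39 in D1, a change of 0.92 ± 0.28 (adjusted p 0.181). Ndufa4 was the lowest of the list at -0.07 ± 0.14. With the glandular covariate 38 of 45 were higher, 5 at an unadjusted p under 0.05, and the median was 0.18. Without D1 mouse 9 the median was 0.26.

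The remaining metabolic lists described here and the secretory pathway list were added after the leading genes were seen, so their counts are descriptions. All 18 genes of the citric acid cycle were higher by any amount, 13 of them at an unadjusted p under 0.05 (72.2%), with a median of 0.55 that was 0.36 without D1 mouse 9. Citrate synthase (Cs), the entry enzyme, measured -0.34, -0.18, -0.09, -0.42 and 0.42 in D0 and 0.14, 0.93, 0.57, 1.15 and 0.11 in D1, a change of 0.70 ± 0.20 (adjusted p 0.181). All 17 tested genes of branched-chain amino acid catabolism were higher, 13 at an unadjusted p under 0.05 (76.5%), with a median of 0.74. Acadsb, which oxidises the isoleucine-derived acyl-CoA, measured -0.52, 0.05, -0.04, -0.02 and 0.13 in D0 and -0.09, 1.67, 0.38, 2.16 and 1.35 in D1, a change of 1.17 ± 0.28. Bckdha, a subunit of the branched-chain keto acid dehydrogenase, had a change of 0.90 ± 0.21. Of 18 genes of fatty acid beta-oxidation 12 were higher, and the median was 0.07. At an unadjusted p under 0.05, 7 were higher (38.9%, background 12.7%) and 2 lower (11.1%, background 7.68%). The beta-oxidation median ran from 0.037 to 0.144 when 1 mouse was left out. With the covariate the medians were 0.37 for the citric acid cycle, 0.46 for branched-chain catabolism and 0.19 for beta-oxidation. At an unadjusted p under 0.05, 8, 6 and 4 genes of these lists were then higher.

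Genes that move proteins through the endoplasmic reticulum and Golgi were higher in most cases. Of 45 secretory pathway genes, a list that includes Mcfd2, 41 were higher by any amount, against 47.7% of all genes, with a median of 0.30. At an unadjusted p under 0.05, 22 were higher (48.9%, background 12.7%) and 1 lower (2.22%, background 7.68%). Sec23b, a component of the coat of vesicles leaving the endoplasmic reticulum, measured -0.27, 0.05, -0.12, -0.28 and 0.02 in D0 and 0.25, 1.01, 0.22, 1.02 and 0.46 in D1. Its groups did not overlap, and the change was 0.71 ± 0.16 (adjusted p 0.181). With the covariate 39 of the 45 were higher, 8 higher and 1 lower at an unadjusted p under 0.05, and the median was 0.24.

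Of 16 genes of the unfolded protein response 13 were higher by any amount, with a median of 0.27 that was 0.41 without D0 mouse 2. At an unadjusted p under 0.05, 6 were higher (37.5%, background 12.7%) and 1 lower (6.25%, background 7.68%). Xbp1, a transcription factor of this response that also drives secretory cell development, measured -0.47, 0.78, 0.37, -0.35 and -0.05 in D0 and -0.15, 1.82, 0.51, 1.91 and 0.91 in D1, a change of 0.94 ± 0.29 (adjusted p 0.181). Asparagine synthetase (Asns), a target of Atf4, had a change of 1.24 ± 0.40 (adjusted p 0.185). Trib3, another Atf4 target, was the lowest at -0.47 ± 0.19 (adjusted p 0.219), or -0.31 without D1 mouse 9, so the 2 targets differed in sign. With the covariate 13 of the 16 were higher, 3 of them at an unadjusted p under 0.05, and the median was 0.19. The values were then 0.56 for Xbp1, 0.69 for Asns and -0.40 for Trib3.

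Several lists were lower. Of 18 immediate early and stress genes 15 were lower by any amount, 8 of them (44.4%, background 7.68%) and no higher gene at an unadjusted p under 0.05, with a median of -0.33. With the glandular covariate the median was -0.32, and 4 genes were lower at an unadjusted p under 0.05. The array means were -0.26, 0.41, 0.21, 0.09 and -0.46 in D0 and -0.25, -0.36, 0.00243, -0.49 and -0.53 in D1, and the ranges overlapped. Gadd45b, a stress sensor, measured 0.83, 0.45, -0.48, 0.18 and 0.67 in D0 and 0.11, -1.21, -0.11, -1.87 and 0.22 in D1, a change of -0.90 ± 0.28 (adjusted p 0.181). The orphan nuclear receptor Nr4a1 measured -2.38, -0.07, -1.71, -1.03 and -2.75 in D0 and -2.46, -2.23, -2.33, -2.13 and -2.89 in D1, a change of -0.82 ± 0.34 (adjusted p 0.229). Nr4a1 was lower on 5 of 5 slides, and its change was -0.43 without D0 mouse 2. Fos, the classic member of the list, was 0.25 ± 0.27 and Jun -0.20 ± 0.20, and each changed sign when 1 mouse was left out.

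Of 13 fat cell genes 10 were lower by any amount, 4 at an unadjusted p under 0.05 (30.8%), with a median of -0.61. The array mean of D0 mouse 5 was 2.39, and the other 9 arrays lay between -1.56 and -0.07. Without that mouse the median was -0.31. Adipsin (Cfd) ranged from 0.27 to 8.80 in D0 and from 0.26 to 6.37 in D1, a change of -2.75 ± 1.26 (adjusted p 0.266), and it was well above background on 4 D0 and 3 D1 arrays. Fabp4, the fatty acid carrier of adipocytes, was at -0.61 ± 0.24 (adjusted p 0.222) and the lipid droplet protein Cidec at 0.85 ± 0.81 (0.19 without D0 mouse 4 and 1.77 without D0 mouse 5). Car3, a carbonic anhydrase abundant in fat and muscle, measured 3.93, 4.50, 2.29, 3.30 and 6.57 in D0 and 3.49, 0.92, 0.31, 0.29 and 2.49 in D1, a change of -2.61 ± 0.71 (adjusted p 0.181). Car3 was lower on 5 of 5 slides, and D1 mice 6 and 10 lay within the D0 range.

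Muscle and connective tissue lists were lower by less. Of 21 fibroblast and matrix genes 20 were lower by any amount, 4 at an unadjusted p under 0.05 (19%), with a median of -0.29 that became -0.05 with the glandular covariate and -0.08 without D1 mouse 10. Periostin (Postn), a matrix protein, was the lowest of that list at -0.77 ± 0.41. Of 19 smooth muscle genes 17 were lower and none was past the unadjusted level in either direction, with a median of -0.30 and -0.08 with the covariate. The smooth muscle list median reached 0.02 without D1 mouse 10, so its sign rested on that animal. The myosin light chain Myl9 was the lowest at -0.54 ± 0.35 (-0.20 without D1 mouse 10). Of 8 skeletal muscle genes 7 were lower, Acta1 among them, with 2 at an unadjusted p under 0.05 (25%, background 7.68%). The median was -0.33, or -0.14 without D1 mouse 9.

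The lists of the squamous epithelium had medians near 0, and both changed sign when 1 mouse was left out. Of 15 basal keratinocyte genes 7 were higher and 8 lower by any amount, with 3 higher (20%, background 12.7%) and none lower at an unadjusted p under 0.05 and a median of -0.07. Krt5 measured 3.30, 3.65, 3.75, 3.26 and 4.08 in D0 and 3.69, 3.36, 3.76, 3.66 and 3.88 in D1, a change of 0.06 ± 0.16 (adjusted p 0.858). Trp63, the master regulator of stratified epithelium, was at -0.70 ± 0.44 (-0.20 without D1 mouse 9) and the laminin chain Lamb3 at 0.76 ± 0.29. Of 29 suprabasal and cornified genes 12 were higher and 17 lower, 2 higher at an unadjusted p under 0.05 (6.9%, background 12.7%), with a median of -0.05. Loricrin (Lor) was at 0.12 ± 0.17 and the epidermal transcription factor Grhl3 at -0.82 ± 0.53 (-0.36 without D1 mouse 9). The desmosomal cadherin Dsc2 had the highest change, 1.88 ± 0.61 (adjusted p 0.185), with D1 values of 1.15, 4.37, 5.55 and 5.05 and no value for mouse 8, whose spot was an outlier and was left out of the fit. Dsc2 D0 values ran from 0.89 to 2.87, and with the covariate its change was 0.81.

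**Figure D4:**
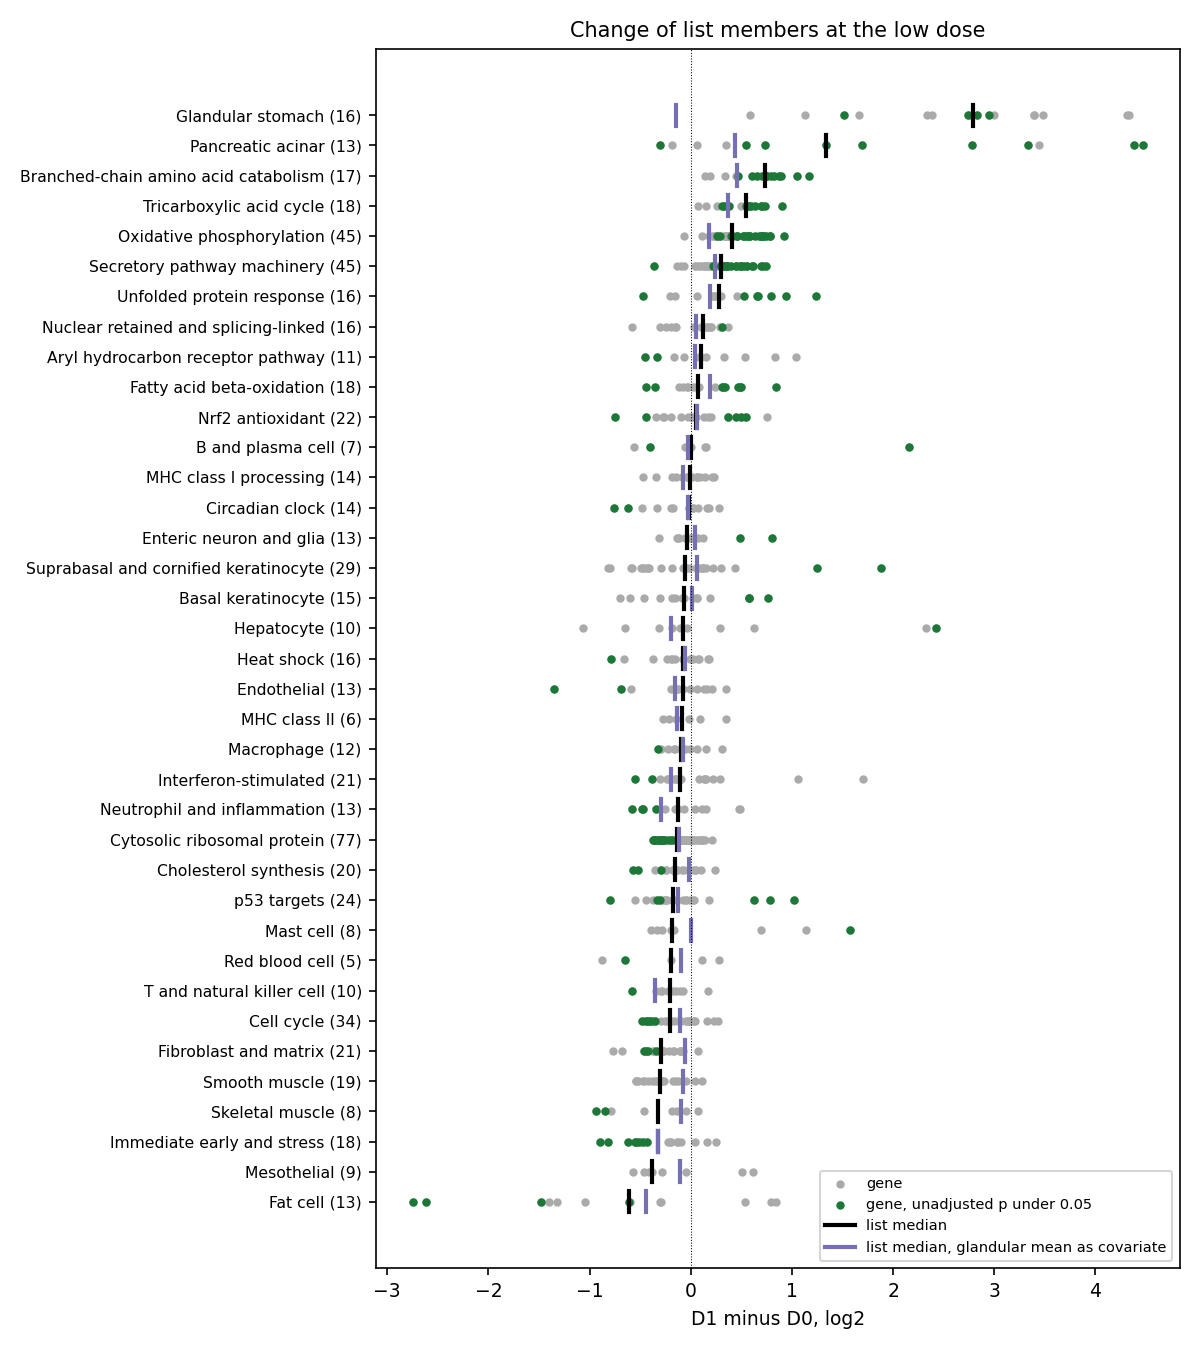
Change of each tested list member at the low dose (x axis, D1 minus D0, log2), with lists on the y axis and the number of tested genes in brackets; green points had an unadjusted p under 0.05, black bars are list medians and purple bars the medians with the glandular list mean as a covariate. The glandular median moves from 2.79 to -0.15, while the immediate early median stays at -0.33 and -0.32.

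The receptor's own pathway was the question most directly posed by the compound. Of 14 listed genes 13 were on the array and 11 were tested, with 7 higher by any amount, none higher (background 12.7%) and 2 lower (18.2%, background 7.68%) at an unadjusted p under 0.05, and a median of 0.10. Leaving out each mouse in turn gave medians from 0.04 to 0.17. Cyp1a1 was well above background on 1 of the 10 arrays, D1 mouse 10, and Cyp1a2 on none, so neither was tested. Cyp1a1 log2 ratios were 0.13, -0.12, -0.19, 0.03 and 0.15 in D0 and 0.03, -0.07, -0.29, -0.53 and 0.15 in D1, with full overlap. Those values lie at the scanner's background in all arrays but the named one, and they carry no fold change.

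The promoters of Cyp1a1 and Cyp1b1, the hydrocarbon-oxidising targets, are shown as the 250 bases before each start in RefSeq, build GRCm38.p6, 5′ to 3′ in the direction of the gene, with GCGTG and its reverse complement CACGC, the core of the xenobiotic response element, in capitals.
Cyp1a1 (chr9:57697363-57697612, plus strand): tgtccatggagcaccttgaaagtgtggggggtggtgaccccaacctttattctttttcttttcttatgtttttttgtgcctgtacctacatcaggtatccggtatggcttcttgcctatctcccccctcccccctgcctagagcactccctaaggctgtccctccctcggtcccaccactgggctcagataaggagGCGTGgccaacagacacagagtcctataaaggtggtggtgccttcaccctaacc
Cyp1b1 (chr17:79715062-79715311, minus strand): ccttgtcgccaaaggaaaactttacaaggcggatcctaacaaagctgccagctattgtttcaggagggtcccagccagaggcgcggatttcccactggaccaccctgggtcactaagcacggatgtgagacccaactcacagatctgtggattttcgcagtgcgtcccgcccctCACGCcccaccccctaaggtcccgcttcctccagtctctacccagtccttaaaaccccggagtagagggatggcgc
Each held 1 match, on opposite strands. GCGTG in either direction occurred in 28.2% of the 32851 promoters, and in 6 of the 10 promoters found for the receptor list (60%). The proximal window leaves out the distal enhancers of these genes.

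Cyp1b1 was the lowest of the list. It measured -0.38, -1.12, -0.46, -0.56 and 0.21 in D0 and -0.75, -1.24, -0.44, -1.55 and -0.60 in D1, and it was well above background on 3 D0 and 5 D1 arrays. The ranges overlapped, D1 was lower on 4 of 5 slides, and the change was -0.45 ± 0.21 (unadjusted limma p 0.0435, adjusted p 0.264). The repressor Ahrr was at -0.07 ± 0.14 and was well above background on 2 arrays of each group. Tiparp measured -1.78, -1.61, -1.33, -1.30 and -1.76 in D0 and -1.54, -1.56, -1.47, -1.51 and -1.30 in D1, a change of 0.08 ± 0.11 with a 95% interval from -0.16 to 0.33.

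The conjugating and reducing enzymes of the list had changes of both signs. Nqo1 measured 2.45, 3.70, 2.64, 2.53 and 2.09 in D0 and 2.31, 3.73, 2.67, 3.77 and 3.60 in D1, a change of 0.53 ± 0.31 (adjusted p 0.368) with an interval from -0.13 to 1.20, and the change was 0.31 without D1 mouse 10. The glutathione transferase Gsta2 was at 1.04 ± 0.49 (adjusted p 0.279) and the aldehyde dehydrogenase Aldh3a1 at 0.33 ± 0.16 (adjusted p 0.288), which was 0.20 without D0 mouse 4. The transferase Gsta1, a close relative of Gsta2, was at 0.83 ± 0.61 and the glucuronosyltransferase Ugt1a6a at -0.33 ± 0.15 (unadjusted limma p 0.0366, adjusted p 0.251), well above background on 2 arrays of each group. For Nqo1 and Gsta2, D0 mouse 2 and D1 mice 7, 9 and 10 were the highest animals of their groups. With the glandular list mean as a covariate the changes were 0.04 for Nqo1, 0.24 for Gsta2 and 0.25 for Aldh3a1. Cdkn1a, the p53-induced cell cycle inhibitor used as a sign of DNA damage, was at 0.03 ± 0.12 (adjusted p 0.929).

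**Figure D5:**
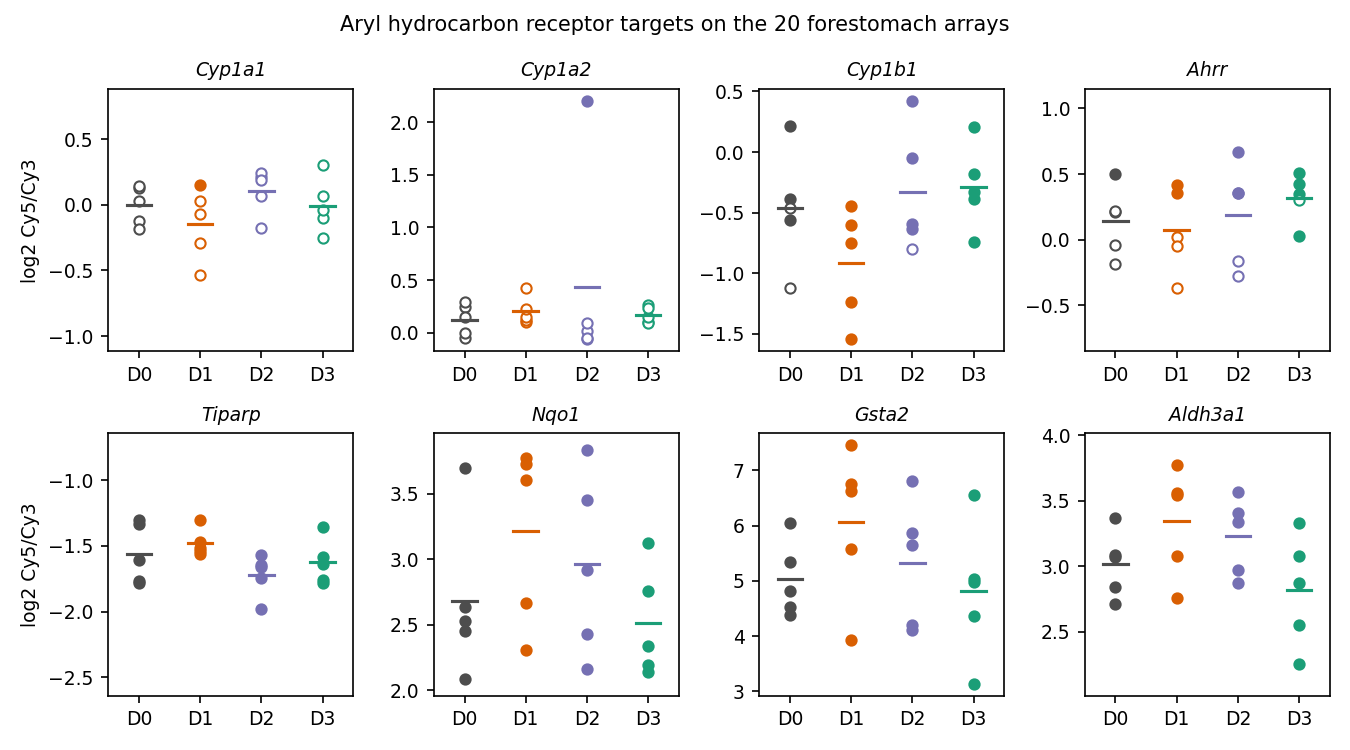
Log2 Cy5/Cy3 ratio (y axis) of 8 receptor pathway genes on the 5 arrays of each forestomach dose group (x axis); bars are means and open points were not well above background. Cyp1a1 and Cyp1a2 are open on nearly all arrays, and the D1 points of Nqo1 and Gsta2 overlap those of D0.

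Other protective pathways had members on both sides of 0. Of 22 genes of the Nrf2 antioxidant list 14 were higher, 4 higher (18.2%, background 12.7%) and 2 lower (9.09%, background 7.68%) at an unadjusted p under 0.05, with a median of 0.05. That median was 0.00726 without D1 mouse 9 and 0.11 without D0 mouse 3. Glutathione reductase (Gsr) was the highest at 0.75 ± 0.50 (0.35 without D0 mouse 4) and heme oxygenase 1 (Hmox1) the lowest at -0.75 ± 0.35 (-0.41 without D1 mouse 9). Peroxiredoxin 1 (Prdx1) measured -0.50, 0.23, -1.02, -0.07 and -0.15 in D0 and -0.37, 0.63, -0.29, 0.62 and 0.65 in D1, a change of 0.55 ± 0.17 (adjusted p 0.185). Of 24 p53 targets 6 were higher, with 3 higher (12.5%, background 12.7%) and 3 lower (12.5%, background 7.68%) at an unadjusted p under 0.05. The median was -0.18, and it ran from -0.24 to -0.12 when 1 mouse was left out. Cyclin G1 (Ccng1) was at 0.63 ± 0.16 and higher on 5 of 5 slides, the pleckstrin-domain protein Phlda3 was at -0.80 ± 0.27, and the adhesion protein Perp of squamous epithelium was at -0.55 ± 0.37 (-0.23 without D1 mouse 9). Noxa (Pmaip1) was not well above background on any D0 array and was so on 3 D1 arrays, with a bound of 1.79-fold higher in D1 (adjusted p 0.253). Its differences on slides 1 to 5 were -0.39, 0.73, -0.57, 2.24 and 3.12, so the slides differed in sign.

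Of 34 cell cycle genes 28 were lower by any amount, 6 of them (17.6%, background 7.68%) and none higher at an unadjusted p under 0.05, with a median of -0.21. That median was -0.33 without D1 mouse 8 and -0.13 without D1 mouse 10. With the glandular covariate it was -0.11, and 2 genes were lower at an unadjusted p under 0.05. Cyclin B1 (Ccnb1) was the lowest at -0.48 ± 0.21 and lower on 5 of 5 slides, and the kinase Cdk1 was the highest at 0.27 ± 0.13, well above background on 1 D0 and 3 D1 arrays. Cdk1 was so on 6 of all 20 arrays, so it was tested only because of D1. Of 77 cytosolic ribosomal protein genes 63 were lower, 14 at an unadjusted p under 0.05 (18.2%), with a median of -0.14. The lowest, Rps19, was at -0.37 ± 0.16. In the cholesterol synthesis list 15 of 20 genes were lower, 3 of them at an unadjusted p under 0.05 (15%, background 7.68%). Mvd, which makes isopentenyl diphosphate, was lower on 5 of 5 slides at -0.57 ± 0.14 (adjusted p 0.181).

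Immune lists had small medians, which were -0.09 for macrophage genes, -0.20 for T and natural killer cell genes, -0.11 for interferon-stimulated genes, -0.13 for neutrophil and inflammation genes and -0.01 for the processing machinery of MHC class I. Leaving out 1 mouse moved each of these medians by over 1.5 times, to as little as -0.0345, -0.0675, -0.0199 and -0.00602 for the first 4, and turned the sign of the fifth. The highest member of the interferon list, the oligoadenylate synthetase-like gene Oasl1, measured -3.49, 0.64, 0.17, -3.07 and -3.70 in D0 and -3.05, 1.25, -0.22, 1.18 and -0.10 in D1, a change of 1.70 ± 0.84 (adjusted p 0.295). Its low values lay in D0 mice 1, 4 and 5 and D1 mouse 6, as for the glandular genes, and its change was 0.11 with the glandular covariate and 1.10 without D0 mouse 4. The guanylate-binding protein Gbp2 was the lowest of that list at -0.55 ± 0.25. Of 13 neutrophil and inflammation genes 4 were lower at an unadjusted p under 0.05 (30.8%), led by the chemokine receptor Cxcr2 at -0.58 ± 0.24 (-0.32 without D1 mouse 9). The T cell receptor modulator Cd5 was at -0.58 ± 0.20 and lower on 5 of 5 slides. Cxcr2 was well above background on 4 D0 and 2 D1 arrays and Cd5 on 3 and 2. Histidine decarboxylase (Hdc), the histamine-making enzyme of mast cells and of gastric enterochromaffin-like cells, measured 0.14, 2.41, 0.72, 0.01 and 0.24 in D0 and 0.40, 2.96, 0.85, 3.57 and 3.61 in D1, a change of 1.57 ± 0.54 (adjusted p 0.192). The mast cell proteases Tpsb2 and Mcpt4 were at -0.39 ± 0.24 and -0.19 ± 0.20, and without 1 mouse they came as near to 0 as -0.23 and -0.034. Derl3, which serves the disposal of misfolded proteins in secretory cells, had the highest change of the B and plasma cell list at 2.15 ± 0.72 (adjusted p 0.189), while the antibody chain Jchain was at 0.15 ± 0.18.

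The low dose was set directly against the higher doses. Between D1 and D2 no probe was called (percent called 0), with 646 probes higher and 1342 lower in D1 at an unadjusted p under 0.05 and a lowest adjusted p of 0.612. Between D1 and D3 no probe was called (percent called 0), with 3146 higher and 3350 lower and a lowest adjusted p of 0.109. In total 6496 probes were past the unadjusted level against the highest dose and 4547 against the vehicle. For Mcfd2, D1 exceeded D3 by 0.52 (adjusted p 0.109) and D2 by 0.25 (adjusted p 0.612). For Rpp25 the differences were 1.34 and 1.26, and for Pip5k1a -0.78 and -0.46. For Cyp1b1, D1 minus D3 was -0.63 and D1 minus D2 was -0.58, both past an unadjusted p of 0.05 and not past the adjusted level.

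All doses were compared with the same 5 vehicle animals, so the changes against vehicle are given side by side with no test. The median of the glandular stomach list was 2.79 at D1, 1.41 at D2 and 0.14 at D3, that of oxidative phosphorylation 0.41, 0.19 and -0.08, and that of branched-chain catabolism 0.74, 0.35 and 0.01. The immediate early list was more even, at -0.33, -0.32 and -0.28. Nr4a1 was at -0.82, -0.86 and -0.84, all against a D0 group in which mouse 2 stood high, while Kdf1 was at 0.92, 0.64 and 0.44.

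The lung of the same animals gave a second comparison. The difference of the D1 changes, forestomach minus lung, was called for 0 of 32018 probes (percent called 0), with 2183 higher and 1557 lower at an unadjusted p under 0.05 and a lowest adjusted p of 0.292. In lung the medians were -0.00 for the glandular stomach list, -0.04 for oxidative phosphorylation and 0.04 for branched-chain catabolism. Mcfd2 was at 0.25 in lung, Idh3a at 0.08, Kdf1 at 0.03 and Rpp25 at 0.30. The tissue differences for these genes had adjusted p values of 0.292, so none was shown to differ between the tissues.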

How the data were processed

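Forestomach RNA of 20 mice, 5 per dose, was hybridized to 2-colour Agilent arrays. The scanner files hold spot intensity values made by the authors with Agilent's Feature Extraction software, version 10.7.3.1 in the headers, and the deposited log2 ratio table of the same arrays correlated with the ratios computed here at r of 0.992 to 0.999. Each array held 62976 spots, of which 3671 controls and 0.486% outlier values were left out, and none was saturated. Median signals without background subtraction were loess-normalized within arrays and averaged over the spots of a probe. Of 55681 probes, those whose Cy5 signal was well above background on 5 or more of the 20 arrays were tested in limma 3.58.1 (R 4.3.3), with dose and slide as fixed terms. All 20 arrays entered the fit and shared the estimate of spread. A call needed a Benjamini-Hochberg adjusted p no higher than 0.05 together with a 1.5-fold change or more.

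Symbols came from RefSeq transcript accessions (GRCm38.p6, names only), which matched 47.4% of probes and 97.9% of those with a curated mRNA accession. The brightest probe stood for a gene. The genes named were 7 receptor and damage genes, the 12 with the smallest p in each direction among genes changed at least 1.5-fold the same way on 5 of 5 slides, and the highest, lowest and brightest member of each list. A few genes that this rule names are not reported here. Gkn1, Gkn2, Atp4a, Atp4b, Pgc, Cblif, Cldn18, Try5, Prss2, Pnliprp1, Acadsb, Bckdha, Cs, Nr4a1, Car3, Ccng1, Prdx1 and Sec23b were chosen after their values were seen, as were the citric acid cycle, fatty acid beta-oxidation, branched-chain and secretory lists. The comparison and all lists were chosen with earlier results of these data known. In simulated data on 25070 probes, 85 of 100 probes changed by 1 and 97 of 100 changed by 2 on the log2 scale were called, with 14 false calls. The simulated noise was independent between probes and lacked the differences that many genes of an animal share here. These shares therefore do not tell how many such changes would be called in the measured data.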

Additional observations from a re-analysis of the deposited data

Results flagged for a closer look

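In each group of 5 arrays, the highest and the lowest value were tested for a gap to the nearest other value that exceeded 0.71 of the group's range, for every gene named and every gene list. Of 350 groups tested 22 had such a value, and chance gives about 1 in 20, or 17.5. D1 mouse 6 held 9 of the 22. Each was the lowest value of D1 and belonged to glandular stomach or pancreatic genes: Tff1 at 4.38, Clps at 4.49, Gkn2 at 2.86, Pgc at 1.38, Cblif at 0.61, Chia1 at 1.84, Atp4b at 0.94, Atp4a at 0.23 and the glandular stomach list mean at -1.55. The remaining D1 value was that of the proteasome activator Psme2 in mouse 10 at 0.0459.

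In D0, mouse 3 stood low for Psme2 at -0.64, for the globin Hbb-b2 at 2.23 and for the cytotoxic granule gene Nkg7 at 0.20, and high for Cd5 at -0.60 and for the muscle calcium pump Atp2a1 at 0.30. Mouse 2 stood low for the cholesterol synthesis gene Hmgcs1 at 0.94 and high for the endothelial gene Egfl7 at 2.23 and for Cdk1 at 0.30. Mouse 1 stood low for Acadsb at -0.52 and for the heat shock list mean at -0.37, mouse 4 high for Snrpf at 0.36, and mouse 5 high for the fat cell list mean at 2.39.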

How the results depend on the processing

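The count of 0 probes called held without the slide block, with the 10 D0 and D1 arrays alone, with normexp background correction, processed signals, deposited log2 ratios, both changed filters, trended and robust eBayes and a residual-shuffling Fs test, and with the glandular covariate, which was chosen after seeing the data. The lowest adjusted p came near the threshold in some settings. It was 0.0517 with trended and robust eBayes, 0.06 with the Fs test and slide block, and 0.50 with the 10 arrays alone. Leaving out 1 mouse at a time gave 0 to 2 probes called, and without D1 mouse 6 the lowest adjusted limma p was 0.0707. The 4547 probes at an unadjusted p under 0.05 became 2351 without the block, 2457 with the 10 arrays alone, 6946 with no filter, 1930 with probes well above background on all 20 arrays, 2384 with the covariate, and 2144 to 5734 when 1 mouse was left out. The filters change the number of probes tested, and for the other settings the cause was not tested. Without the block the probes at that level were 584 against D2 (1988 with it), 3458 against D3 (6496 with it) and 1511 for forestomach minus lung (3740 with it, and 2436 with the mouse as a block), with 0 called in each. Scaling the average signal between arrays left every ratio as it was. For D1 against D0 the slide was the pairing, and the values without it are given above. By mouse, no paired analysis was possible because D0 and D1 hold different animals, while forestomach and lung of the same mice were compared with the mouse as a block.

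Over 20 alternatives and 138 genes, 2640 of 2712 gene values kept their sign and 72, of 34 genes, changed it, none of them called under either setting. Some settings could not change a sign. Scaling between arrays, the changed filters and the trended and robust eBayes leave the change of a tested gene as it is. So do fits without the slide block or with the D0 and D1 arrays alone, for genes with a value on every array. Part of the 2640 was thus fixed by the design, and only the remaining settings test the sign. With normexp correction the gene that changed sign was Hspb1 at 0.00339. With processed signals these were Hba-a1 at -0.0918, Tpm1 at -0.10, Col6a1 at -0.0848, Tef at -0.0943, Cdkn1a at -0.0437, Mcpt4 at 0.10, Alas2 at 0.34 and Atp2a1 at -0.0565. With the deposited ratios they were Krt5 at -0.00906, Taldo1 at -0.0178, Col6a1 at -0.0274, Tef at -0.0521 and Cdkn1a at -0.0393. With the covariate they were Lor at -0.0537, Hspb1 at 0.0246, Cox8a at -0.00396, Tff1 at -0.56, Taldo1 at -0.0081, Ndufa4 at 0.0289, Gkn2 at -0.53, Tef at -0.0144, Cblif at -0.31, Atp4b at -0.47, Gsr at -0.16, Tnni2 at 0.0655, Jchain at -0.0322, Isg15 at -0.15, Mcpt4 at 0.0179, Aqp5 at -0.76, Fos at -0.10 and Ahrr at 0.0612. Leaving out 1 mouse at a time changed the sign of 20 genes, with ranges of Psme2 -0.12 to 0.0227, Tef -0.19 to 0.18, H2-Ab1 -0.0921 to 0.10, Cdkn1a -0.0545 to 0.12, Mcm6 -0.00955 to 0.29, Hspb1 -0.15 to 0.12, Taldo1 -0.0271 to 0.16, Hmgcs1 -0.0727 to 0.25, Tpm1 -0.13 to 0.43 and Jun -0.32 to 0.0102, and of Egfl7 -0.32 to 0.20, Cd3e -0.27 to 0.0456, Hba-a1 -0.0821 to 0.39, Krt5 -0.0239 to 0.15, Hsp90ab1 -0.00706 to 0.41, Ndufa4 -0.18 to 0.0674, Col6a1 -0.0741 to 0.30, Jchain -0.0485 to 0.27, Fos -0.011 to 0.47 and Sparc -0.28 to 0.17. Leaving out 1 mouse also moved the change of 79 of the 138 genes and 30 of 37 list medians by more than 1.5 times. Of the 24 leading genes it so moved only that of Klra16, which was -0.50 without D0 mouse 4. Those 24 were chosen for a small p and the same direction on 5 of 5 slides, so their steadiness was partly fixed by the choice. The median of the receptor pathway list was 0.33 with probes well above background on all 20 arrays, which tests fewer genes. Kdf1 was called without D0 mouse 5 (change 1.11, adjusted p 0.0297). Signal over background limits the receptor targets, since Cyp1a1 and Cyp1a2 were each well above it on 1 of 20 arrays.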

Other observations

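Lists for other cell types of the organ wall and for general processes gave these medians of the D1 change. Endothelial genes had a median of -0.08, with the junction protein Cldn5 lowest at -1.35 ± 0.49 (adjusted p 0.201), or -0.80 without D0 mouse 2, and the fenestral protein Plvap highest at 0.35 ± 0.27 (0.11 without D0 mouse 4). Mesothelial genes had a median of -0.39, which was -0.11 without D1 mouse 10 and -0.11 with the glandular covariate, with mesothelin (Msln) at -0.57 ± 0.38 (-0.30 without D1 mouse 10) and the stem cell growth factor Rspo1 at 0.62 ± 0.39 (0.23 without D0 mouse 2). Enteric neuron and glia genes had a median of -0.03. The neuropeptide Vip measured 1.82, 0.83, 0.91, 2.71 and 3.00 in D0 and 1.39, 3.02, 1.52, 3.65 and 3.70 in D1, a change of 0.80 ± 0.35 (adjusted p 0.249) that was 0.51 without D0 mouse 2, and the synaptic protein Snap25 had a change of 0.49 ± 0.19.

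Circadian clock genes had a median of -0.02, with Rora lowest at -0.75 ± 0.34 (-0.42 without D1 mouse 9). Heat shock genes had a median of -0.08, with Hspb8 lowest at -0.79 ± 0.36 (-0.43 without D1 mouse 9). MHC class II genes had a median of -0.08, mast cell genes -0.18, B and plasma cell genes -0.00, red blood cell genes -0.20 and nuclear retained and splicing-linked RNAs 0.12. Leaving out 1 mouse changed the sign of these medians except that of red blood cell genes, and also of the endothelial and the enteric medians.

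Hepatocyte genes had a median of -0.07, which was -0.55 without D0 mouse 5 and 0.67 without D0 mouse 1, and their array means ranged from -1.16 to 0.94 in D0 and from -1.57 to 1.92 in D1. Transthyretin (Ttr), which liver and endocrine cells make, measured 2.23, 4.23, 2.01, 2.22 and 0.18 in D0 and 0.01, 5.73, 3.69, 6.66 and 6.87 in D1, a change of 2.42 ± 1.13 (adjusted p 0.274) that was 1.57 without D0 mouse 5. The fibrinogen chain Fgb was at -1.07 ± 1.02 (-0.24 without D0 mouse 1 and -2.10 without D0 mouse 5), with no value for D1 mouse 7.

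Other highest, lowest or brightest members of the lists had small changes. Among immune genes, Itgam was at 0.31 ± 0.21, Tyrobp at -0.33 ± 0.14, Csf3r at 0.47 ± 0.23, S100a9 at 0.49 ± 0.36, Cd79b at -0.56 ± 0.29, H2-Eb1 at 0.35 ± 0.18, H2-DMa at -0.28 ± 0.19, Nlrc5 at -0.47 ± 0.29 and Calr at 0.23 ± 0.18. Of the others, Rps29 was at 0.21 ± 0.11, Rps14 at -0.29 ± 0.16, Fdft1 at 0.24 ± 0.17, S100b at -0.32 ± 0.20, Ddx17 at 0.36 ± 0.25, Rsrp1 at -0.58 ± 0.30 and Trf at -0.31 ± 0.32. Of these 16 genes only Tyrobp, at an unadjusted limma p of 0.0341, was under 0.05. Leaving out 1 mouse moved 15 of the 16 by over 1.5 times and turned the sign of none.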
